A study of Mus musculus with 9 samples.

Results

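The genes of glycolysis and of the response to low oxygen were followed here as a module of 39 mouse genes, named by symbol and taken with all of their probes. Of these, 36 had at least 1 named probe among the 19057 genes named on the array, and 34 passed the filter on dim probes, out of 9136 genes tested in all. The module falls into 21 genes of glucose handling, of which 17 were tested, and 18 genes of oxygen sensing or other targets of hypoxia-inducible factor (HIF), of which 17 were tested. Hk2, Gpi1 and Eno1 were not analysed here. The probes of Pfkfb3 and Bnip3 were detected on none of the 9 arrays. The 39 genes carried 69 probes, and 54 of them were kept.

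Expression was measured with biotin-labelled total RNA on 9 Illumina mouse bead arrays, which read the brightness of each probe in 1 colour. The cells were c-kit-enriched bone marrow from C57/Bl6 mice, transduced with a retrovirus then kept 10 days in RPMI with 10% FCS and cytokines, namely 20 ng/µl SCF plus 10 ng/µl each of IL-6 and IL-3, as the labels state. The groups, with 3 arrays each, carried the fusion MN1-TEL, the same fusion with a deletion that the labels call del DBD (usually short for DNA-binding domain, and called del DBD here), or MN1 alone. MN1 is a transcriptional coactivator, and TEL, the product of Etv6, is a repressor of the ETS family. Every group therefore holds transduced cells that carry MN1 sequence, and untransduced cells were not among the groups. The sources used here give neither the viral promoter nor the number of animals. The labels leave unsaid whether replicates came from separate cultures, and the p-values accordingly cover only the spread among these samples, possibly a technical one.

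Glycolysis takes glucose through a chain of cytosolic enzymes to pyruvate, which lactate dehydrogenase turns into lactate for export or mitochondria oxidise. When oxygen is ample, prolyl hydroxylases mark the HIF alpha subunits for destruction, and when it is scarce the alpha subunits pair with Arnt and raise transcription of glucose transporters, most glycolytic enzymes and a set of other targets. Both blood stem cells in the marrow and neutrophils are known for their reliance on glycolysis.

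Between 14373 and 15273 probes were detected per MN1-TEL array, 14854 to 15132 per del DBD array and 14249 to 15020 per MN1 array. Mean raw intensity was 927 to 973, 857 to 897 and 632 to 689 in the same order of groups. Array correlations across genes were 0.975 to 0.994 within groups and 0.878 to 0.954 between groups, and the lowest value within a group involved MN1-TEL replicate 2, which stood apart from the other MN1-TEL arrays. The label of c-kit cells was checked against Kit, the gene of the c-kit receptor, which was detected on all 9 arrays at 11.95 to 14.75 on the log2 scale. Values below are normalized log2 signals of the brightest kept probe of each gene, and levels of different probes are not compared. A gene is called when limma's adjusted p over all 9136 genes is under 0.05, and differences are log2 differences between group means.

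Expression of the module was lower with MN1-TEL than with MN1, and deletion of the DBD gave levels near those of MN1. With MN1-TEL, 30 of the 34 members tested fell and 1 rose against MN1, where 29.4% of all genes tested fell and 25.3% rose. The median difference of the members was -1.15, against -0.06 over all genes, and it was -1.06 with dim members at their lower bound. With del DBD, 5 members rose and 4 fell against MN1, where 18% of all genes rose and 19.1% fell, and the median difference was 0.09, against -0.04 over all genes. Set against MN1-TEL, del DBD had 28 members higher and 1 lower, where 15% of all genes were higher and 14.4% lower, with a median difference of 1.12, against 0.02 over all genes. The 3 comparisons share arrays pair by pair, so they are not independent of each other. In bulk RNA, fewer cells of a type and less RNA per cell cannot be told apart.

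The same order held array by array. Relative to the MN1 mean of each gene, the median member stood at -1.08, -1.36 and -1.24 on the MN1-TEL arrays, at -0.08, 0.11 and 0.14 on the del DBD arrays and at -0.08, 0.05 and 0.00 on the MN1 arrays. All MN1-TEL arrays thus lay below every array of the other groups. The median over all genes stayed between -0.08 and 0.00 on the 9 arrays. Without MN1-TEL replicate 2, MN1-TEL against MN1 gave 30 members lower and 2 higher with a median of -1.13, and del DBD against MN1-TEL gave 28 higher and 2 lower with a median of 1.23. For 18 of 34 members (52.9%) the mean was highest with del DBD, then MN1, then MN1-TEL, an order shown by 10.4% of all genes. Another 13 members (38.2%) ran MN1, del DBD, MN1-TEL from high to low, as did 29.9% of all genes.

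**Figure D1:**
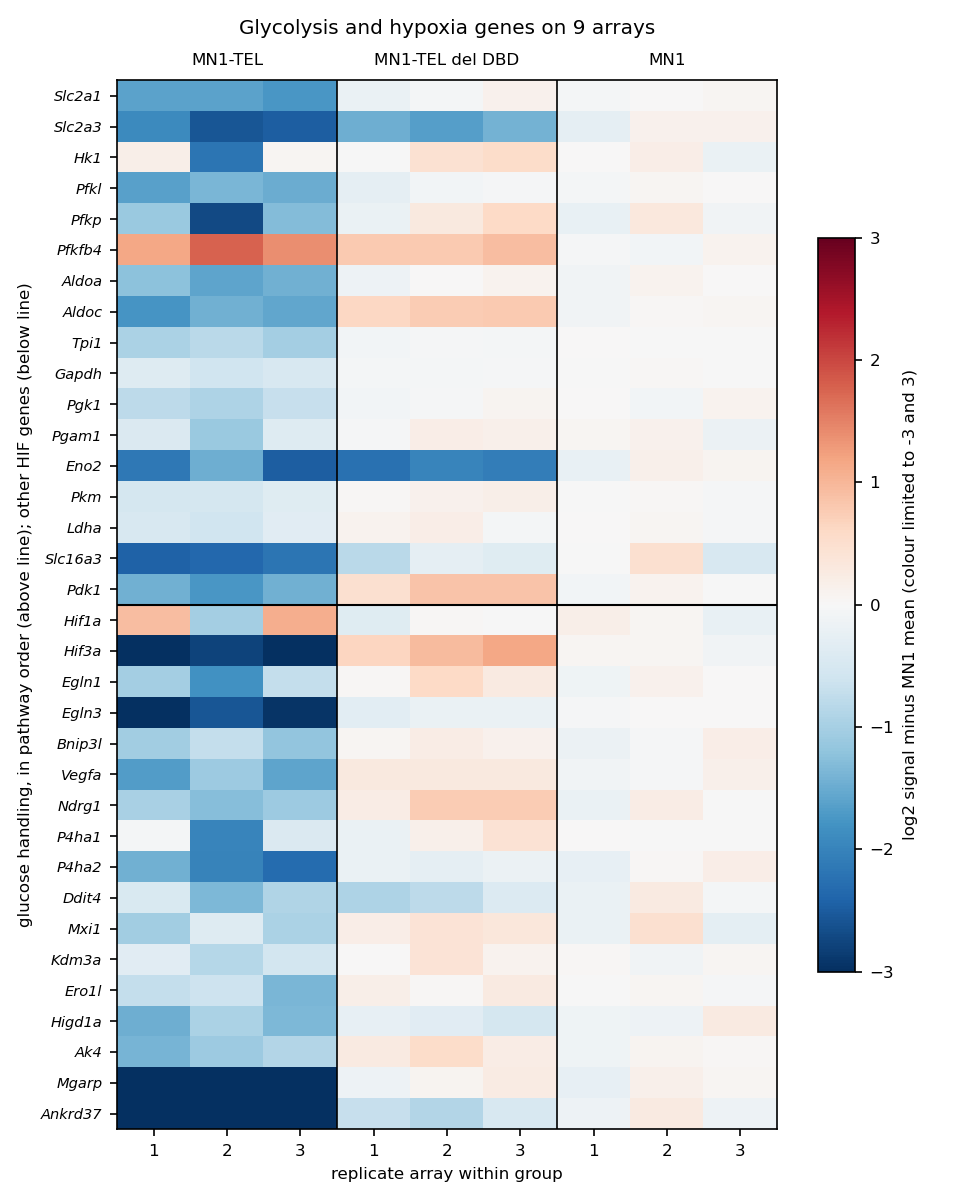
Log2 signal of each of the 34 members tested on each array, minus that gene's MN1 mean, with glucose handling in pathway order above the line and other HIF genes below it. Blue is lower and red is higher than the MN1 mean, with the colour limited to -3 and 3, and the 3 MN1-TEL columns are blue in most rows while the del DBD columns are mostly pale.

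The scaling of the arrays mattered more for del DBD than for MN1-TEL. With every array brought to 1 median over all probes, the median of all genes moved to 0.40 in MN1-TEL against MN1, 81.4% of calls over all genes were then higher rather than 46.2%, and 25 members were still lower and 1 higher, with a median of -0.76. For del DBD against MN1 that scaling moved all genes to 0.34 and the share of higher calls to 87.1% from 48.6%, and 10 members were higher and 2 lower. With arrays scaled to the median of the probes detected on all 9 arrays, an alternative added after the data were seen, 4 members were higher and 12 lower in del DBD against MN1, 36.4% of calls over all genes were higher, and the all-gene median was -0.13. Relative to the all-gene median, the members' median in del DBD against MN1 was 0.13 as normalized here and -0.04 with each of these scalings. The small differences between del DBD and MN1 therefore have no settled direction as a group, whereas del DBD against MN1-TEL gave 27 higher and 1 lower with the first scaling, although the share of higher calls over all genes went to 39.1% from 51.1%, and 28 higher and 1 lower with the second.

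The largest fall was that of Mgarp, which encodes a mitochondrial protein. Mgarp measured 5.73, 6.78 and 5.44 on the MN1-TEL arrays, 12.26, 12.49 and 12.66 on the del DBD arrays and 12.17, 12.57 and 12.47 on the MN1 arrays. It was detected on 1 of 3 MN1-TEL arrays and was bright on all 6 others, with no overlap between MN1-TEL and either other group. Where fewer than 3 arrays of the dimmer group detected a gene, only a bound can be given, for which each dim array takes the higher of its lowest detected signal and the probe's own. An adjusted p printed beside a bound belongs to the fitted difference, undetected signals included, and the bound itself was not tested. By this bound Mgarp was at least 71.5-fold lower with MN1-TEL than with MN1 (adjusted p = 2.58e-07), and at least 74.8-fold higher with del DBD than with MN1-TEL (adjusted p = 3.16e-06). Its difference between del DBD and MN1 was 0.07 ± 0.30 (SE, adjusted p = 0.885).

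Ankrd37, an ankyrin-repeat gene and HIF target, measured 7.31, 7.86 and 7.10 with MN1-TEL, 10.58, 10.41 and 10.81 with del DBD and 11.13, 11.56 and 11.13 with MN1. The 3 groups did not overlap, and del DBD lay between the others but close to MN1. The fall with MN1-TEL against MN1 was -3.85 ± 0.21 (SE, adjusted p = 6.15e-07), a 14.5-fold decrease, and del DBD exceeded MN1-TEL by 3.18 (adjusted p = 1.14e-05). Del DBD was also lower than MN1 by a difference of -0.68 (adjusted p = 0.0298), a call that was lost when MN1 replicate 1 (0.0513), MN1 replicate 2 (0.108), del DBD replicate 1 (0.0708) or del DBD replicate 2 (0.104) was left out, and with scaling to the median of all probes (0.179).

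Hif3a encodes a HIF alpha subunit with splice forms that restrain the other alpha subunits. It measured 5.14, 5.89 and 5.21 with MN1-TEL, 9.31, 9.63 and 9.84 with del DBD and 8.72, 8.72 and 8.56 with MN1. The gene was detected on none of the MN1-TEL arrays and was highest on the del DBD arrays, which did not overlap MN1. With MN1-TEL it was at least 6.1-fold lower than with MN1 (adjusted p = 1.64e-06), with del DBD 1.9-fold higher than with MN1 (difference 0.92 ± 0.21, adjusted p = 0.00717), and with del DBD at least 11.6-fold higher than with MN1-TEL (adjusted p = 3.78e-06).

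For 6 members that fell with MN1-TEL and match 1 RefSeq promoter, 3 of glucose handling and 3 of the other HIF genes, the 250 bases before the transcription start are printed to show the DNA these falls relate to (RefSeq, build GRCm38.p6, 5′ to 3′ in gene orientation). They were taken by the size of the fitted difference. For genes undetected with MN1-TEL that size is uncertain, and by their bounds of -1.22 for Slc16a3, -1.48 for Eno2 and -2.61 for Hif3a the falls of Slc2a1 (-1.65), Pfkl (-1.49) and Egln3 (-2.92) were larger. Capitals mark ACGTG or GCGTG on either strand, the letters at the core of sites that HIF is known to bind, which also occur inside CACGTG, the E-box of Myc and related factors.
Slc16a3, chr11:120948817-120949066, plus strand: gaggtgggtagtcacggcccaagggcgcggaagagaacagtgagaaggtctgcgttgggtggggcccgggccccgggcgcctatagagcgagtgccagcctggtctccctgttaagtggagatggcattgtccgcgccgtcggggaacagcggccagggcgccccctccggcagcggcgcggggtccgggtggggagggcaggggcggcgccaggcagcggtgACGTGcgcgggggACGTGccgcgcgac
Eno2, chr6:124769674-124769923, minus strand: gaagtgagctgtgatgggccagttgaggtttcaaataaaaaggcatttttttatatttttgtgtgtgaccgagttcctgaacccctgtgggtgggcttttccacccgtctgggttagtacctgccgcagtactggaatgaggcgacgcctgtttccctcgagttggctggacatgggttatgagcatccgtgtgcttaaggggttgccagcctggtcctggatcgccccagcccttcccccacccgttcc
Pfkp, chr13:6648772-6649021, minus strand: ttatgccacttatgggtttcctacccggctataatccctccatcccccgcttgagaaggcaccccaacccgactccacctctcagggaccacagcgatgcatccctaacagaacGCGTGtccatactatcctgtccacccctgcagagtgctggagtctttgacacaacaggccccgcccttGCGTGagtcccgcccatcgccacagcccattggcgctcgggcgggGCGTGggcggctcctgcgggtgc
Mgarp, chr3:51396548-51396797, minus strand: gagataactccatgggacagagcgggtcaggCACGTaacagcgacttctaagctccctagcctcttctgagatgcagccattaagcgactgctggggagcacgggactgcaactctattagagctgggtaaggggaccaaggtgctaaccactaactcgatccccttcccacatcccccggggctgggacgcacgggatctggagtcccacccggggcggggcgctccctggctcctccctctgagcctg
Ankrd37, chr8:45999851-46000100, minus strand: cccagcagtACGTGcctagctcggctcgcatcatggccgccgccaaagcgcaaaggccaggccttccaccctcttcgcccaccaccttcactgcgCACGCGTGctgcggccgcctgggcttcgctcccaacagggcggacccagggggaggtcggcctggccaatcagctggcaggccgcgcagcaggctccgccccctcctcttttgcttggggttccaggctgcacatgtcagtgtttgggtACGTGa
Hif3a, chr7:17062428-17062677, minus strand: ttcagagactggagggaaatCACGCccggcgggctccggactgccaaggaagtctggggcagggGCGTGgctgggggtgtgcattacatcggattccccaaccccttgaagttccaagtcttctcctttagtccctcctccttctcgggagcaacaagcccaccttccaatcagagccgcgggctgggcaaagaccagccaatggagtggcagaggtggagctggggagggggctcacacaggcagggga
Slc16a3 held 2 matches, Pfkp 3, Mgarp 1, Ankrd37 4 and Hif3a 2, and Eno2 held 0. The match nearest the start was that of Ankrd37, between 6 and 2 bases before it, and Slc16a3 had matches 27 to 23 and 14 to 10 bases before its start. None of the 12 lay inside an E-box. The letters CCGGAA, a core that many ETS factors favour, was searched on both strands and was found in none of the 6 windows.

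Over the whole module, 31 of the 34 genes tested had a RefSeq promoter, and Slc2a3, Bnip3l and Ndrg1 had no entry. At least 1 match of ACGTG or GCGTG lay in the 250 bases before a start in 29 of these 31 genes (93.5%), against 62.3% of the 7520 tested genes with an entry and 41.5% of all 27025 genes in the promoter table. Counted by promoter, since a gene can have several, the shares were 36 of 46 (78.3%), 56.2% and 38.6%. CCGGAA lay in 7 of the 31 genes (22.6%), against 26.5% of the tested genes. CACGTG lay in 3 of the 31 (9.68%), against 10.4% of the tested genes. The members were listed as known glycolytic and HIF genes, a match is a run of letters and not a shown binding site, and its absence says only that these letters are not in this window.

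Glucose enters cells through transporters of the Slc2a family, and both of those in the module fell. Slc2a1, the widely expressed GLUT1, measured 11.59, 11.58 and 11.44 with MN1-TEL, 13, 13.12 and 13.33 with del DBD and 13.12, 13.21 and 13.24 with MN1. The MN1-TEL arrays lay below all others, and del DBD overlapped MN1. The difference was -1.65 ± 0.11 for MN1-TEL against MN1 (SE, adjusted p = 2.32e-06), -0.04 for del DBD against MN1 (adjusted p = 0.832) and 1.62 for del DBD against MN1-TEL (adjusted p = 1.52e-05). Slc2a3, the high-affinity transporter GLUT3, measured 11.52, 10.88 and 10.96 with MN1-TEL, 11.97, 11.79 and 12.03 with del DBD and 13.16, 13.58 and 13.56 with MN1. Here both fusions lay below MN1, without overlap between any groups. The fall was -2.32 ± 0.19 with MN1-TEL (adjusted p = 7.28e-06) and -1.50 ± 0.19 with del DBD (adjusted p = 2.36e-04), and del DBD exceeded MN1-TEL by 0.81 (adjusted p = 0.0101). Other transporters of the family, outside the 39 genes, were mixed in MN1-TEL against MN1. Slc2a6 rose by 1.04 (adjusted p = 2.29e-04), and Slc2a9, a urate transporter undetected with MN1, was at least 1.68-fold higher (adjusted p = 1.87e-04). Slc2a8 ran as the members did, with a difference of -0.70 there (adjusted p = 7.61e-04) and of 0.58 in del DBD against MN1-TEL (adjusted p = 0.00508).

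Hexokinase, which traps glucose in the cell as its phosphate, was represented by Hk1. Hk1 measured 8.81, 6.43 and 8.69 with MN1-TEL, 8.61, 9.09 and 9.19 with del DBD and 8.65, 8.82 and 8.43 with MN1. MN1-TEL replicate 2 alone was low, the groups overlapped, and no comparison was called (adjusted p = 0.328 for MN1-TEL and 0.665 for del DBD, each against MN1, and 0.199 between del DBD and MN1-TEL).

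Phosphofructokinase commits sugar to glycolysis, and its liver-type and platelet-type subunits both fell. Pfkl measured 11.68, 11.93 and 11.83 with MN1-TEL, 13.04, 13.23 and 13.27 with del DBD and 13.24, 13.37 and 13.32 with MN1. Pfkp measured 10.98, 9.39 and 10.79 with MN1-TEL, 11.90, 12.39 and 12.69 with del DBD and 11.86, 12.41 and 11.99 with MN1. For both genes MN1-TEL lay below the 6 other arrays while del DBD overlapped MN1, and MN1-TEL replicate 2 was the lowest for Pfkp. The difference of MN1-TEL against MN1 was -1.49 ± 0.11 for Pfkl (SE, adjusted p = 3.81e-06) and -1.70 ± 0.39 for Pfkp (adjusted p = 0.00474). Del DBD exceeded MN1-TEL by 1.36 (adjusted p = 3.62e-05) and 1.94 (adjusted p = 0.00521). The other, dimmer kept probe of each gene ran the same way but was not called, with limma's p adjusted over all kept probes. In MN1-TEL against MN1 it gave -0.42 for Pfkl (adjusted p = 0.17) and -1.54 for Pfkp (adjusted p = 0.128). In del DBD against MN1-TEL it gave 0.63 (adjusted p = 0.0834) and 2.20 (adjusted p = 0.0701).

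Pfkfb4, whose bifunctional enzyme makes and removes the fructose bisphosphate that activates phosphofructokinase, ran the other way. It measured 10.89, 11.50 and 11.13 with MN1-TEL, 10.53, 10.52 and 10.67 with del DBD and 9.70, 9.65 and 9.85 with MN1. The groups did not overlap, with MN1-TEL highest and MN1 lowest, and Pfkfb4 was the single member called higher with MN1-TEL. Its difference was 1.44 ± 0.15 for MN1-TEL against MN1 (SE, adjusted p = 4.72e-05) and 0.84 ± 0.15 for del DBD against MN1 (adjusted p = 0.00247). Del DBD was lower than MN1-TEL by a difference of -0.60 (adjusted p = 0.0164), a call lost without del DBD replicate 1 (0.0517) or del DBD replicate 2 (0.0562).

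Aldolase splits the sugar into triose phosphates. Aldoa, the muscle-type form, measured 13.27, 12.93 and 13.06 with MN1-TEL, 14.36, 14.53 and 14.61 with del DBD and 14.40, 14.62 and 14.51 with MN1. Aldoc, the brain-type form, measured 9.90, 10.24 and 10.11 with MN1-TEL, 12.29, 12.43 and 12.46 with del DBD and 11.56, 11.71 and 11.74 with MN1. Both were lowest on the MN1-TEL arrays, and Aldoc on del DBD arrays was above every MN1 array, whereas Aldoa overlapped. MN1-TEL against MN1 gave -1.42 ± 0.12 for Aldoa (SE, adjusted p = 1.12e-05) and -1.58 ± 0.12 for Aldoc (adjusted p = 4.02e-06). Aldoc rose by 0.72 (adjusted p = 0.00123) with del DBD against MN1, and Aldoa had a difference of -0.01 (adjusted p = 0.958).

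Triose phosphate isomerase and glyceraldehyde phosphate dehydrogenase follow aldolase, and Tpi1 and Gapdh both fell with MN1-TEL. Tpi1 measured 13.94, 14.06 and 13.86 with MN1-TEL, 14.80, 14.85 and 14.83 with del DBD and 14.89, 14.87 and 14.87 with MN1. Gapdh, often used as a loading control, measured 14.61, 14.40 and 14.52 with MN1-TEL, 14.92, 14.93 and 14.96 with del DBD and 14.98, 15.03 and 14.97 with MN1. For both, every MN1-TEL array was below every other array, and del DBD lay just below MN1. Del DBD against MN1 was not called, at -0.05 for Tpi1 (adjusted p = 0.72) and -0.06 for Gapdh (adjusted p = 0.664). Scaling to the median of the probes detected on all 9 arrays gave lower calls there, -0.60 for Tpi1 (adjusted p = 0.00405) and -0.70 for Gapdh (adjusted p = 5.40e-04). The difference of MN1-TEL against MN1 was -0.92 for Tpi1 (adjusted p = 2.92e-05) and -0.48 for Gapdh (adjusted p = 0.00178), and that of del DBD against MN1-TEL was 0.87 for Tpi1 (adjusted p = 1.40e-04) and 0.42 for Gapdh (adjusted p = 0.00781, and 0.0713 with scaling to the median of all probes).

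Pgk1, the first enzyme of the chain to yield ATP, measured 13.57, 13.44 and 13.66 with MN1-TEL, 14.27, 14.33 and 14.44 with del DBD and 14.37, 14.27 and 14.46 with MN1. Pgam1, phosphoglycerate mutase, measured 11.49, 10.81 and 11.54 with MN1-TEL, 11.88, 12.11 and 12.07 with del DBD and 11.97, 12.04 and 11.75 with MN1. Both were lower on all MN1-TEL arrays, with the margin small for Pgam1. Pgk1 differed by -0.81 (adjusted p = 1.81e-04) and Pgam1 by -0.64 (adjusted p = 0.0175) in MN1-TEL against MN1. The Pgam1 call was lost without MN1 replicate 1 (0.0526), without MN1 replicate 2 (0.0601) and with scaling to the median of all probes (0.278). Between del DBD and MN1-TEL, Pgk1 rose by 0.79 (adjusted p = 5.69e-04) and Pgam1 by 0.74 (adjusted p = 0.0172), the second lost without del DBD replicate 2 (0.0596) or 3 (0.0586).

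Enolase was read through Eno2, the neuron-type form. Eno2 measured 5.39, 6.06 and 5.05 with MN1-TEL, 5.30, 5.55 and 5.46 with del DBD and 7.30, 7.69 and 7.61 with MN1. It was detected on the MN1 arrays and on no array of either fusion, so that unlike most members it was low with del DBD too. Eno2 was at least 2.78-fold lower with MN1-TEL (adjusted p = 7.24e-05) and at least 2.88-fold lower with del DBD (adjusted p = 1.06e-04) than with MN1. Eno1b, a near-identical copy of Eno1 that is not among the 39 genes and whose probe may read both, differed by -1.45 in MN1-TEL against MN1 (adjusted p = 8.17e-04), 0.01 in del DBD against MN1 (adjusted p = 0.982) and 1.46 in del DBD against MN1-TEL (adjusted p = 0.00192).

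Pkm, pyruvate kinase, measured 14.42, 14.42 and 14.59 with MN1-TEL, 14.99, 15.08 and 15.12 with del DBD and 14.93, 14.98 and 14.92 with MN1. Ldha, the lactate dehydrogenase subunit that favours making lactate, measured 14.52, 14.41 and 14.66 with MN1-TEL, 15.11, 15.21 and 14.95 with del DBD and 15.01, 15.06 and 14.97 with MN1. Both were lowest with MN1-TEL, by differences of -0.47 (adjusted p = 0.00226) and -0.48 (adjusted p = 0.00445) against MN1. Del DBD exceeded MN1-TEL by 0.59 for Pkm (adjusted p = 0.00154) and 0.56 for Ldha (adjusted p = 0.00441). Neither was called in del DBD against MN1, but scaling to the median of the probes detected on all 9 arrays gave lower calls, -0.52 for Pkm (adjusted p = 0.00323) and -0.60 for Ldha (adjusted p = 9.54e-04). Among the highest raw intensities of a member were 37005 for Ldha, 35571 for Pkm and 32645 for Gapdh, near the highest of any probe (44204 on an MN1-TEL array, 41137 on a del DBD array and 42852 on an MN1 array), and the part of this in their small differences was not tested.

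Slc16a3, the lactate exporter MCT4, measured 4.86, 4.93 and 5.09 with MN1-TEL, 6.48, 7.01 and 6.92 with del DBD and 7.26, 7.77 and 6.80 with MN1. It was detected on none of the MN1-TEL arrays and on all others, and del DBD overlapped MN1. It was at least 2.33-fold lower with MN1-TEL than with MN1 (adjusted p = 3.34e-05) and at least 1.68-fold higher with del DBD than with MN1-TEL (adjusted p = 4.26e-04). Del DBD against MN1 was -0.47 (adjusted p = 0.141), and it passed the threshold without MN1 replicate 3 (-0.71, adjusted p = 0.033). Pdk1, the kinase that closes the entry of pyruvate into the citrate cycle, measured 9.53, 9.23 and 9.53 with MN1-TEL, 11.45, 11.82 and 11.83 with del DBD and 10.88, 11.08 and 10.95 with MN1. Its groups did not overlap, and del DBD was the highest. Pdk1 differed by -1.54 ± 0.14 in MN1-TEL against MN1 (SE, adjusted p = 1.47e-05), 0.73 ± 0.14 in del DBD against MN1 (adjusted p = 0.00304) and 2.27 ± 0.14 in del DBD against MN1-TEL (adjusted p = 8.58e-06).

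**Figure D2:**
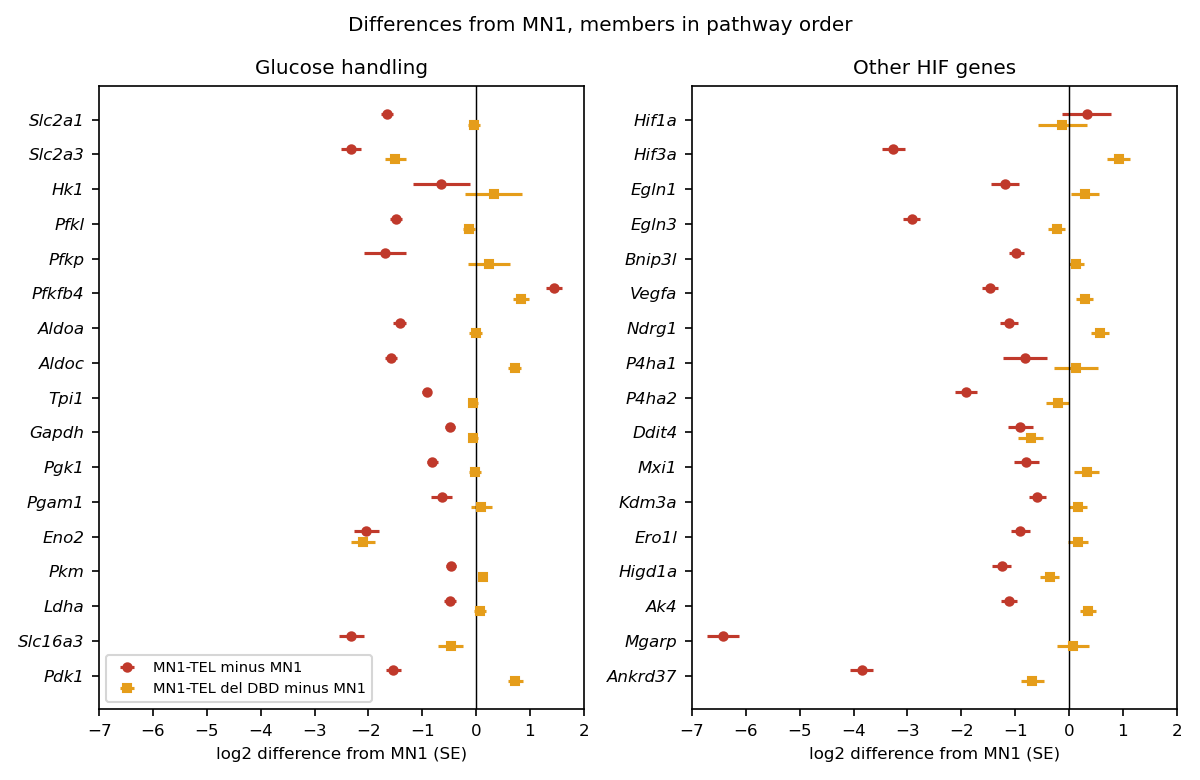
Log2 difference from MN1, with its standard error, of MN1-TEL (circles) and del DBD (squares) for each member, 3 arrays per group. Circles lie left of 0 for all but Pfkfb4 and Hif1a, and most squares lie near 0, with Slc2a3 and Eno2 the farthest to the left.

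Set side by side, the 17 glucose handling genes had 15 lower and 1 higher with MN1-TEL against MN1, with a median of -1.42 (-1.22 with dim genes at their bound). The 17 other HIF genes had 15 lower, with a median of -1.12 (-1.01 with bounds). With del DBD against MN1, glucose handling had 3 higher and 2 lower with a median of -0.01, and the other HIF genes 2 higher and 2 lower with a median of 0.14. With del DBD against MN1-TEL, glucose handling had 14 higher and 1 lower with a median of 0.87, and the other HIF genes 14 higher with a median of 1.47. Over all genes tested, 29.4% were lower and 25.3% higher in the first of these comparisons, 19.1% and 18% in the second, and 14.4% and 15% in the third. The members higher with del DBD than with MN1 were Pfkfb4, Aldoc, Pdk1, Hif3a and, by 1 of its 2 probes, Ndrg1, and those lower were Slc2a3, Eno2, Ddit4 and Ankrd37, while the 25 members not called had differences of -0.47 to 0.35. The difference between these classes was not tested. The widest range was among the other HIF genes, from -6.42 to 0.33 in MN1-TEL against MN1, against -2.32 to 1.44 for glucose handling.

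Of the oxygen sensing genes, Hif1a, the main inducible alpha subunit, did not follow its targets. It measured 9.80, 7.87 and 9.97 with MN1-TEL, 8.52, 8.92 and 8.86 with del DBD and 9.06, 8.93 and 8.65 with MN1. The MN1-TEL arrays split, with replicates 1 and 3 above and replicate 2 below all the others. No comparison was called (adjusted p = 0.575 for MN1-TEL and 0.866 for del DBD, each against MN1, and 0.517 between del DBD and MN1-TEL). Without MN1-TEL replicate 2, Hif1a was higher with MN1-TEL than with MN1 by 1.00 (adjusted p = 8.13e-04), and del DBD against MN1-TEL was -1.12 (adjusted p = 0.00109). The activity of HIF is set largely by the stability of the protein, which arrays do not read.

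The prolyl hydroxylases are both sensors and, for Egln3 above all, targets of HIF. Egln1 measured 6.51, 5.70 and 6.81 with MN1-TEL, 7.56, 8.11 and 7.78 with del DBD and 7.39, 7.64 and 7.52 with MN1. Egln3 measured 10.28, 10.98 and 10.60 with MN1-TEL, 13.23, 13.35 and 13.34 with del DBD and 13.50, 13.56 and 13.54 with MN1. Both lay lower on every MN1-TEL array, and Egln1 was detected on 2 of the 3. Egln3 fell 7.55-fold in MN1-TEL against MN1 (difference -2.92 ± 0.16, adjusted p = 6.45e-07), and Egln1 was at least 2.01-fold lower (adjusted p = 0.00397, and 0.0771 with scaling to the median of all probes). With del DBD, Egln3 was 6.43-fold higher than with MN1-TEL (adjusted p = 7.10e-06) and differed from MN1 by -0.23 (adjusted p = 0.285), and Egln1 was at least 2.46-fold higher than with MN1-TEL (adjusted p = 0.00271).

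**Figure D3:**
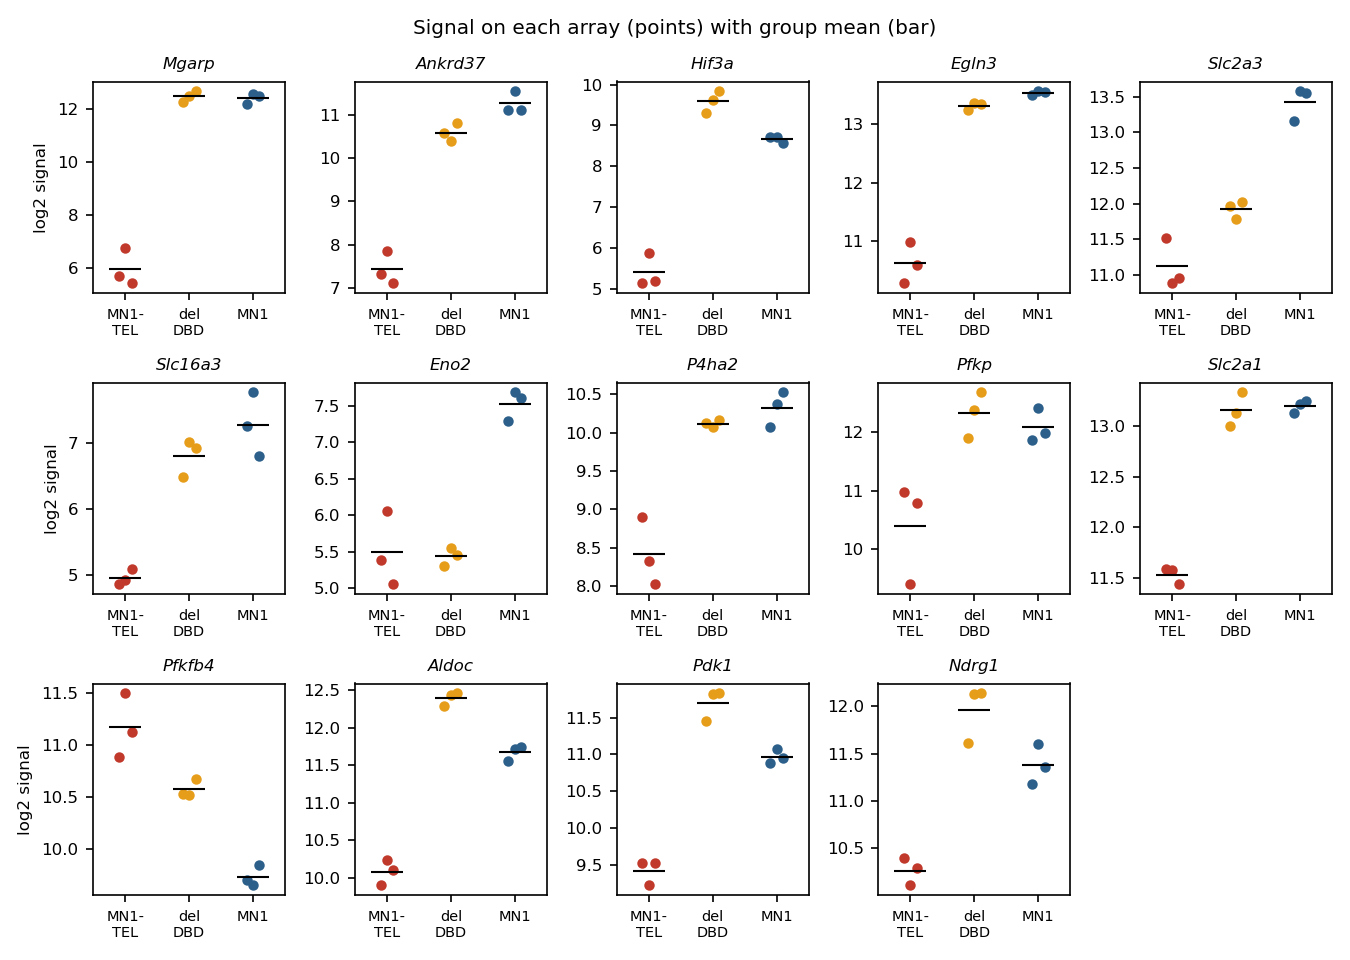
Log2 signal on each array (points) with the group mean (bar) for the 10 called members with the largest changes in MN1-TEL against MN1 and for 4 further members called higher in MN1-TEL or del DBD against MN1. Axes differ between panels and do not start at 0, and Mgarp, Hif3a and Slc16a3 are low with MN1-TEL alone, Eno2 is low with both fusions, and Pfkfb4 is high with both.

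Vegfa, the angiogenic growth factor, measured 9.90, 10.47 and 9.98 with MN1-TEL, 11.87, 11.86 and 11.87 with del DBD and 11.46, 11.53 and 11.73 with MN1. Its groups did not overlap, with del DBD highest and MN1-TEL lowest. It fell by 1.46 on the log2 scale in MN1-TEL against MN1 (adjusted p = 4.18e-05) and was higher by 1.75 in del DBD against MN1-TEL (adjusted p = 5.46e-05), while the difference of 0.29 between del DBD and MN1 was not called (adjusted p = 0.164, and 0.0318 without MN1-TEL replicate 2). Bnip3l, a receptor for the removal of mitochondria, measured 11.61, 11.93 and 11.46 with MN1-TEL, 12.71, 12.87 and 12.78 with del DBD and 12.48, 12.61 and 12.85 with MN1. It differed by -0.98 in MN1-TEL against MN1 (adjusted p = 3.86e-04) and by 1.12 in del DBD against MN1-TEL (adjusted p = 4.81e-04).

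Among the collagen prolyl hydroxylase subunits, P4ha2 fell and P4ha1 was not called. P4ha2 measured 8.90, 8.33 and 8.02 with MN1-TEL, 10.13, 10.07 and 10.16 with del DBD and 10.08, 10.37 and 10.53 with MN1. The MN1-TEL arrays lay apart below the rest, with a difference of -1.91 ± 0.21 against MN1 (SE, adjusted p = 5.58e-05), and del DBD exceeded MN1-TEL by 1.70 (adjusted p = 3.51e-04). P4ha1 measured 8.90, 6.98 and 8.51 with MN1-TEL, 8.74, 9.10 and 9.39 with del DBD and 8.97, 8.94 and 8.93 with MN1. MN1-TEL replicate 2 was the lowest array by far, and the difference of -0.82 against MN1 had adjusted p = 0.121. The mean of its probes gave -0.89 (adjusted p = 0.00404), and leaving out MN1-TEL replicate 1 gave -1.20 (adjusted p = 0.0306). Del DBD against MN1-TEL was 0.95 for P4ha1 (adjusted p = 0.116), and without MN1-TEL replicate 1 it was 1.33 (adjusted p = 0.0375).

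Ndrg1, a stress-response gene, measured 10.40, 10.11 and 10.29 with MN1-TEL, 11.61, 12.13 and 12.14 with del DBD and 11.18, 11.60 and 11.36 with MN1. It was lowest on the MN1-TEL arrays and highest on the del DBD arrays. The difference was -1.11 in MN1-TEL against MN1 (adjusted p = 4.97e-04) and 1.69 in del DBD against MN1-TEL (adjusted p = 1.20e-04). That of del DBD against MN1, 0.58 (adjusted p = 0.0263), was lost without MN1 replicate 1 (0.0982), MN1 replicate 3 (0.0692), del DBD replicate 2 (0.0952) or del DBD replicate 3 (0.0958), and the other kept probe of Ndrg1 gave 0.17 (adjusted p = 0.404 over all probes). Ddit4, which restrains the growth kinase mTOR, measured 11.15, 10.27 and 10.70 with MN1-TEL, 10.68, 10.82 and 11.19 with del DBD and 11.40, 11.88 and 11.54 with MN1. Both fusions lay below MN1 and overlapped each other. Ddit4 differed by -0.90 in MN1-TEL against MN1 (adjusted p = 0.00881, and 0.0868 with scaling to the median of all probes) and by 0.19 in del DBD against MN1-TEL (adjusted p = 0.587). Its difference between del DBD and MN1 was -0.71 (adjusted p = 0.0377), which was lost without MN1 replicate 1 (0.0515), 2 (0.129) or 3 (0.0739), and without del DBD replicate 1 (0.115) or 2 (0.104).

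Mxi1, an antagonist of Myc, measured 7.32, 7.98 and 7.43 with MN1-TEL, 8.58, 8.79 and 8.72 with del DBD and 8.17, 8.84 and 8.08 with MN1. Kdm3a, a histone demethylase, measured 10.99, 10.46 and 10.76 with MN1-TEL, 11.33, 11.73 and 11.42 with del DBD and 11.35, 11.22 and 11.39 with MN1. The MN1-TEL arrays were lowest for both, with the smaller gap for Mxi1. Their falls of -0.79 (adjusted p = 0.0145) and -0.59 (adjusted p = 0.0106) in MN1-TEL against MN1 were lost with scaling to the median of all probes (0.414 and 0.477), and that of Mxi1 also without MN1-TEL replicate 1 (0.0527). Del DBD exceeded MN1-TEL by 1.12 for Mxi1 (adjusted p = 0.00528) and 0.76 for Kdm3a (adjusted p = 0.00624).

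Ero1l, annotated as Ero1a and needed for disulfide formation in secreted proteins, measured 5.86, 5.95 and 5.22 with MN1-TEL, 6.76, 6.62 and 6.85 with del DBD and 6.56, 6.63 and 6.54 with MN1. Higd1a, a protein of the inner mitochondrial membrane, measured 4.88, 5.39 and 5.01 with MN1-TEL, 6.10, 6.02 and 5.83 with del DBD and 6.21, 6.20 and 6.62 with MN1. Both are dim genes that were detected on no MN1-TEL array, and Higd1a on only 2 of 3 arrays in each other group. In MN1-TEL against MN1, Ero1l was at least 1.43-fold lower (adjusted p = 0.00226) and Higd1a at least 1.22-fold lower (adjusted p = 2.04e-04). In del DBD against MN1-TEL, Ero1l was at least 1.61-fold higher (adjusted p = 0.00205). Higd1a was also called higher there (adjusted p = 0.00378), but its log2 bound was 0.00, so no size can be given for that rise. Ak4, an adenylate kinase of mitochondria, measured 9.17, 9.48 and 9.70 with MN1-TEL, 10.84, 11.13 and 10.79 with del DBD and 10.44, 10.66 and 10.61 with MN1. It was lowest with MN1-TEL, by -1.12 against MN1 (adjusted p = 2.52e-04), and del DBD exceeded MN1-TEL by 1.47 (adjusted p = 1.48e-04).

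**Figure D4:**
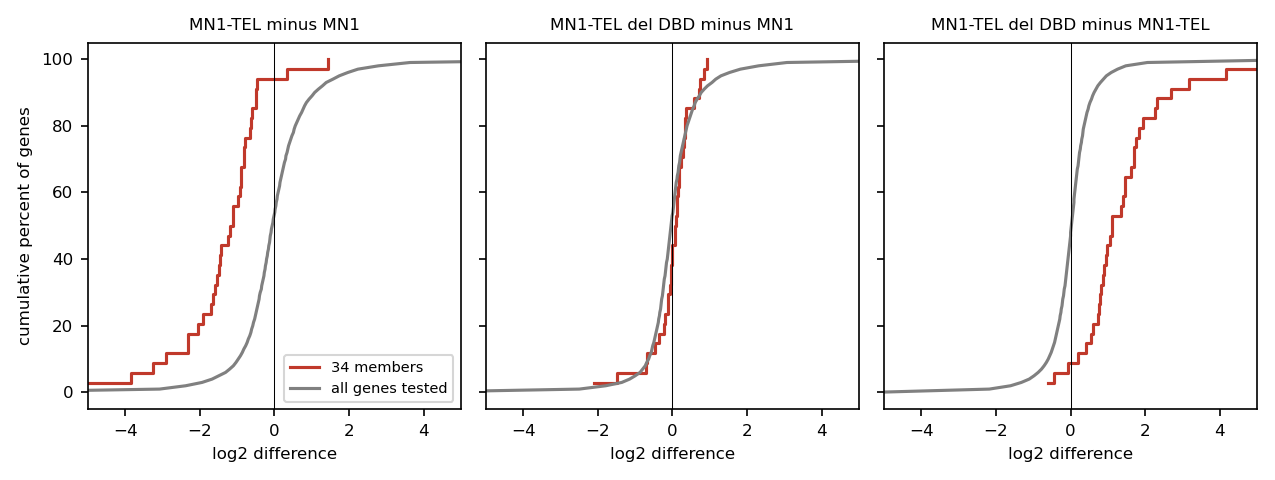
Cumulative percent of genes by log2 difference for the 34 members tested (red) and all 9136 genes tested (grey), in the 3 comparisons, with axes limited to -5 and 5. The members lie left of all genes in MN1-TEL against MN1 (medians -1.15 and -0.06), along them in del DBD against MN1 (0.09 and -0.04) and right of them in del DBD against MN1-TEL (1.12 and 0.02).

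Groups without overlap were counted as well: 31 members were lower on every MN1-TEL array than on every MN1 array, against 32.8% of all genes, and 28 were higher on every del DBD array than on every MN1-TEL array, against 21.7% of all genes. For del DBD and MN1, 8 members lay higher and 8 lower without overlap, against 26.3% and 32.2% of all genes. Of the 27 members detected on all 9 arrays, 23 fell and 1 rose in MN1-TEL against MN1 with a median of -0.98, and 22 were higher and 1 lower in del DBD against MN1-TEL with a median of 1.12. Of all 7570 genes so detected, 2272 fell and 1844 rose in the first comparison, and 1153 were higher and 1056 lower in the second. The counts of members therefore did not rest on those near the background.

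Each probe was also tested over all 15870 kept probes. Of the 54 kept probes of members, 45 were lower and 1 higher in MN1-TEL against MN1, where 25.7% of all kept probes were lower and 23% higher. Between del DBD and MN1, 6 were higher and 7 lower, where 15.6% and 15.8% of all probes were. Between del DBD and MN1-TEL, 40 were higher and 1 lower, where 11.9% and 11.5% were. Probes of a gene mostly ran the same way: the 3 of Tpi1 differed by -1.17 to -0.92 in MN1-TEL against MN1 and the 2 of Vegfa by -1.46 to -1.44. The Tpi1 probe at -1.17 was undetected with MN1-TEL, and its bound was -0.28. The dimmest of 3 probes of Egln3 gave -0.34 (adjusted p = 0.127), and a second probe of Aldoc, detected with del DBD alone, gave -0.10 (adjusted p = 0.636). The other probe of P4ha1 was lower in MN1-TEL against MN1 by -0.97 (adjusted p = 8.16e-04). The brightest probes of Pkm, Pgk1 and P4ha1 were not called in del DBD against MN1, but a dimmer probe of Pkm gave -0.61 (adjusted p = 0.0181), one of Pgk1 gave -1.26 (adjusted p = 0.033) and one of P4ha1 gave -0.71 (adjusted p = 0.00792). Conversely, the dimmer probe of Aldoc was higher there by 1.08 (adjusted p = 0.00133), and the other probe of Ndrg1 was not called (0.17).

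**Figure D5:**
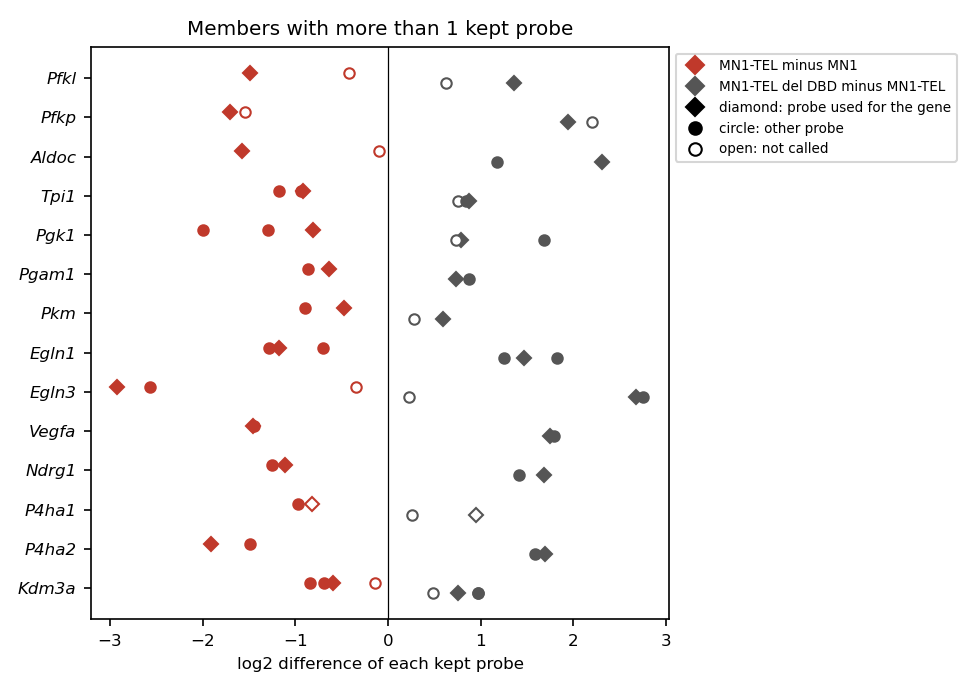
Log2 difference of every kept probe for the members that kept several probes, comparing MN1-TEL with MN1 (red) and del DBD against MN1-TEL (grey), with diamonds for the probe that represents the gene and open symbols for probes not called. All red symbols lie left of 0 and all grey symbols right of it, over a range of -2.92 to -0.10 for the red ones.

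Other genes of these pathways showed smaller or mixed changes. Over all genes tested, 25.3% rose and 29.4% fell in MN1-TEL against MN1, and 18% and 19.1% in del DBD against MN1. In del DBD against MN1-TEL, 15% were higher and 14.4% lower. Of 16 further genes of glycolysis and pyruvate handling, 4 rose and 7 fell in MN1-TEL against MN1, with a median of -0.20. With scaling to the median of all probes 7 rose and 3 fell, where 4497 of all 9136 genes rose and 1028 fell. Of the same 16, 4 rose and 3 fell in del DBD against MN1, and 6 were higher and 1 lower in del DBD against MN1-TEL. Hk3, the hexokinase of myeloid cells, measured 11.89, 12.44 and 12.57 with MN1-TEL, 13.25, 13.40 and 13.34 with del DBD and 9.09, 9.03 and 8.71 with MN1. It was far higher with both fusions, by 3.36 with MN1-TEL (adjusted p = 6.02e-07) and by 4.39 with del DBD (adjusted p = 2.18e-07) against MN1. Fbp2 and Fbp1, whose enzymes run the phosphofructokinase step in reverse, were at least 9.17-fold (adjusted p = 3.61e-06) and at least 2.4-fold (adjusted p = 2.08e-04) lower with MN1-TEL than with MN1. With del DBD against MN1, Fbp1 rose by 1.49 (adjusted p = 2.58e-04), and Fbp2 had a difference of -0.40 (adjusted p = 0.346). Hkdc1, a hexokinase-like gene, was at least 1.94-fold lower there (adjusted p = 0.0113), and Pdp2, a pyruvate dehydrogenase phosphatase, was lower by -0.52 (adjusted p = 0.00502, and 0.127 with scaling to the median of all probes). Set against MN1-TEL, del DBD had Fbp2 and Fbp1 at least 6.94-fold (adjusted p = 3.60e-05) and at least 6.77-fold (adjusted p = 1.13e-05) higher, and Slc2a6 lower by -0.65 (adjusted p = 0.00839).

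Of 21 genes of pyruvate dehydrogenase and the citrate cycle, 3 rose and 6 fell in MN1-TEL against MN1, where 25.3% and 29.4% of all genes did. None of the 21 was called with a 2-fold change, and their median was -0.15. With scaling to the median of all probes 8 rose, where 4497 of all 9136 genes rose. Sdhd, a membrane subunit of succinate dehydrogenase, rose by 0.80 (adjusted p = 2.66e-04) and Aco1, the cytosolic aconitase, by 0.75 (adjusted p = 0.0121). The mitochondrial dehydrogenase genes Idh2 and Mdh2 differed by -0.67 (adjusted p = 0.00152) and -0.62 (adjusted p = 0.0027), calls lost with that scaling (0.0898 and 0.214). With del DBD against MN1, 2 were lower, Mdh2 by -0.57 (adjusted p = 0.00685, and 0.115 with that scaling) and Sdhb, the iron-sulfur subunit of succinate dehydrogenase, by -0.53 (adjusted p = 0.0281). The Sdhb call was lost without any 1 of the MN1 arrays (0.0608, 0.0914 and 0.0632) and without del DBD replicate 2 (0.101) or 3 (0.0893). Against MN1-TEL, del DBD had Sdhd lower by -0.50 (adjusted p = 0.009), and Pdha1, a pyruvate dehydrogenase subunit, higher by 0.41 (adjusted p = 0.0198, lost without del DBD replicate 2 at 0.053 or 3 at 0.0741). Idh2 was higher there by 0.38 (adjusted p = 0.0477), a call lost on leaving out any 1 array other than MN1-TEL replicate 2.

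Of 8 pentose phosphate genes, 2 rose and 3 fell in MN1-TEL against MN1, where 25.3% and 29.4% of all genes did. Rpe, ribulose phosphate epimerase, was lower by -1.72 (adjusted p = 2.18e-05) and Prps2, which makes phosphoribosyl pyrophosphate, by -0.83 (adjusted p = 3.85e-04, and 0.0963 with scaling to the median of all probes). Rpia, ribose phosphate isomerase, rose by 0.57 (adjusted p = 9.18e-04) and Taldo1, transaldolase, by 0.33 (adjusted p = 0.0194), the second lost without MN1 replicate 3 (0.0773) or MN1-TEL replicate 1 (0.0547). With del DBD against MN1, Rpe differed by -0.98 (adjusted p = 0.00142), Prps2 by -0.61 (adjusted p = 0.00419, and 0.401 with that scaling) and Rpia by 0.39 (adjusted p = 0.0123, lost without MN1 replicate 1 at 0.0522 or 2 at 0.056). Del DBD exceeded MN1-TEL by 0.73 for Rpe (adjusted p = 0.00869).

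Of 9 genes of glycogen and other side branches, 2 rose and 2 fell in MN1-TEL against MN1, where 25.3% and 29.4% of all genes did. Pgm1, phosphoglucomutase, was lower by -1.23 (adjusted p = 6.48e-06) and Psat1, of serine synthesis, by -0.86 (adjusted p = 3.00e-04). Ugp2, which makes UDP-glucose, rose by 0.77 (adjusted p = 9.51e-04) and Pygl, a glycogen phosphorylase, by 0.40 (adjusted p = 0.0132). Set against MN1, del DBD had Ugp2 higher by 1.20 (adjusted p = 1.11e-04), Pygl higher by 0.65 (adjusted p = 0.00189) and Psat1 lower by -0.56 (adjusted p = 0.00616). Scaling to the median of the probes detected on all 9 arrays ended both Pygl calls (0.338 and 0.0627). Del DBD exceeded MN1-TEL by 1.17 for Pgm1 (adjusted p = 4.49e-05) and 1.04 for Gbe1, the glycogen branching enzyme (adjusted p = 0.011).

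With del DBD against MN1, 3 of 16 genes of HIF control fell, where 19.1% of all genes did. In MN1-TEL against MN1, 1 of the 16 rose and 6 fell, where 25.3% and 29.4% of all genes did, and the median of the 16 was -0.18. The riser was Egln2, the remaining prolyl hydroxylase, at 0.70 (adjusted p = 0.00507). The chaperone gene Hsp90aa1 fell by 0.88 on the log2 scale (adjusted p = 1.68e-04), and Crebbp, a coactivator, by 0.81 (adjusted p = 0.0019). With del DBD against MN1, Crebbp differed by -0.65 (adjusted p = 0.0106), and both Crebbp calls were lost with scaling to the median of all probes (0.27 and 0.596). Elob, an elongin of the von Hippel-Lindau complex, differed by -0.37 (adjusted p = 0.0307), a call lost without any 1 of the MN1 arrays (0.0846, 0.0917 and 0.0677) and without del DBD replicate 1 (0.0614) or 2 (0.112). Hsp90aa1 was higher in del DBD against MN1-TEL by 0.55 (adjusted p = 0.00618). Ep300, the coactivator related to Crebbp, was higher by 0.43 there (adjusted p = 0.0352), which was lost without MN1 replicate 2 (0.0566), MN1-TEL replicate 1 (0.0623) or 2 (0.0672), or del DBD replicate 1 (0.111) or 2 (0.0944).

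Of 38 further HIF targets, 8 rose and 19 fell in MN1-TEL against MN1, with a median of -0.29, or -0.13 with dim genes at their bound. In del DBD against MN1-TEL 18 were higher and 3 lower, with a median of 0.47, or 0.41 with bounds. With scaling to the median of all probes, 12 rather than 19 fell in MN1-TEL against MN1, where 1028 rather than 2686 of all 9136 genes fell. Stc2, a secreted stanniocalcin, and Plod2, a collagen lysyl hydroxylase, were at least 29.4-fold (adjusted p = 5.48e-08) and at least 21.5-fold (adjusted p = 1.11e-07) lower with MN1-TEL than with MN1. They were at least 19.6-fold (adjusted p = 2.59e-06) and at least 10.3-fold (adjusted p = 4.53e-06) higher with del DBD than with MN1-TEL. Errfi1, a feedback inhibitor of the EGF receptor, rose by 2.39 with MN1-TEL against MN1 (adjusted p = 4.97e-07), and Trf, the iron carrier transferrin, rose by 2.21 (adjusted p = 2.29e-06).

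Del DBD against MN1 had 8 of these 38 targets higher and 7 lower. Trf rose by 2.95 (adjusted p = 7.69e-07), and Edn1, the vasoconstrictor endothelin, undetected with MN1, was at least 1.3-fold higher (adjusted p = 5.91e-05). Stc1, the other stanniocalcin, was at least 3.79-fold lower (adjusted p = 6.41e-04) and Rora, a nuclear receptor, at least 2.88-fold lower (adjusted p = 1.40e-04) with del DBD than with MN1. Against MN1-TEL, del DBD was lower for Errfi1 by -2.82 (adjusted p = 2.78e-06) and for Dusp1, a phosphatase of MAP kinases, by -1.43 (adjusted p = 4.90e-05).

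Markers of other cells also differed between the groups, in another pattern than the module. The median difference of the mature neutrophil genes from MN1 was 3.54 with MN1-TEL and 3.10 with del DBD. For the module these medians were -1.15 and 0.09. Of 12 mature neutrophil genes tested out of 13 listed, 11 were higher with MN1-TEL and 9 with del DBD than with MN1, and 6 of the 12 were detected on no MN1 array. Their summed signal, on the linear scale, was 126000 to 139000 with MN1-TEL, 93500 to 99900 with del DBD and 7410 to 8590 with MN1. Of 9 monocyte and macrophage genes tested, 8 were higher in each fusion than with MN1. Most neutrophil and monocyte genes tested were thus higher with each fusion than with MN1. The exceptions were Ccr2, lower with both fusions, Cxcr2, not called with MN1-TEL, and Mmp8, Mmp9 and Padi4, not called with del DBD. The part of other cell types in the module's differences was not tested. Cd34, a progenitor marker, differed by -0.94 in MN1-TEL against MN1 (adjusted p = 6.58e-04) and -0.61 in del DBD against MN1 (adjusted p = 0.0127), and Kit by 0.73 (adjusted p = 0.0173) and -1.50 (adjusted p = 6.57e-04). Of 6 proliferation genes tested, 1 fell in each of these comparisons.

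Erythroid genes also differed, with 5 of 11 tested. Of these, 3 fell with MN1-TEL, and 2 rose and 3 fell with del DBD, each against MN1. The risers with del DBD were the globin genes Hbb-bs, by 3.08 (adjusted p = 4.09e-04), and Hbb-bt, by 3.03 (adjusted p = 4.27e-04). Alas2, Klf1 and Epor were the genes that fell, with both fusions. The summed signal of the erythroid genes, most of it from the globins, was 2190 to 7370 with MN1-TEL, 27000 to 32000 with del DBD and 3430 to 5290 with MN1. This globin signal, like Pdk1, Aldoc and Hif3a, was highest with del DBD, and its part in these results was not tested. Of 10 mast cell and basophil genes, 2 rose and 2 fell with MN1-TEL and 6 fell with del DBD against MN1. Their summed signal was strong in every group, at 96100 to 142000 with MN1-TEL, 80100 to 94900 with del DBD and 111000 to 122000 with MN1. Of 4 megakaryocyte and platelet genes tested, 3 fell with MN1-TEL and 2 with del DBD against MN1. For B cells, 1 of 5 listed genes could be tested, for T and NK cells 1 of 6, and for stroma and endothelium 2 of 7.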

How the data were processed

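Total RNA from 9 samples was read on Illumina mouse arrays, 3 per construct, grouped by sample title. The authors deposited raw, linear intensity values, and the file headers pair each deposited intensity with a detection p-value. Their second deposited table, of normalized intensity, was an alternative here, with values under 16 raised to 16. The submitters' processing notes name GenomeStudio 2010.3, and the sources used here give no other step.

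Background correction (normexp, offset 16), quantile normalization and log2 were done with neqc of limma 3.58.1 in R 4.3.3. Probes detected at p under 0.01 on at least 3 of 9 arrays were kept (15870 of 45281), and the kept probe of highest mean stood for its gene. In the platform annotation 34885 probes had 1 gene symbol, 18 several and 10378 none. Of those with 1 symbol, 34807 took the RefSeq symbol of their Entrez identifier, and the rest kept the platform symbol. One limma model held all 9 arrays and 3 groups, with 2-sided tests adjusted by Benjamini-Hochberg over 9136 genes at 0.05. The limma fit alone was tested on simulated normalized values, and the steps before it were not. All 39 listed genes were named, as were up to 2 risers and 2 fallers per pathway list and comparison, and per-array values are given for the called members. The lists were other glycolysis and pyruvate genes, pyruvate dehydrogenase and citrate cycle, pentose phosphate, glycogen and side branches, HIF pathway, further HIF targets, and cell type markers. Members and lists were chosen with earlier results of these data known. Arrays give no depth, and their number limits the precision.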

Additional observations from a re-analysis of the deposited data

How the results depend on the processing

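Results for the members were recomputed with other background correction, scaling, filters, probe rules, models and with each array left out. In MN1-TEL against MN1 the median difference of the members was -0.92 without background correction, -1.03 with an offset of 50, -0.76 with scaling to the median of all probes, -1.30 with the authors' normalized values, -0.98 for members detected on all 9 arrays and -1.31 with scaling to the median of the probes detected on all 9 arrays, the last chosen after seeing the data. With array weights 2 members were higher. Between del DBD and MN1, scaling to the median of all probes gave 10 members higher, 2 lower and a median of 0.30, and the added scaling gave 12 lower and a median of -0.16, with Pkm at -0.52 and Ldha at -0.60 where their differences had been positive. Between del DBD and MN1-TEL the median was 0.79 without background correction, 1.31 with the authors' values and 1.24 with array weights. The cause of these shifts was not tested.

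With 1 array left out, MN1-TEL against MN1 gave 1 to 2 members higher, 29 to 30 lower and a median of -1.23 to -1.10. Del DBD against MN1 gave 4 to 6 higher, 2 to 4 lower and a median of 0.01 to 0.16. Del DBD against MN1-TEL gave 27 to 29 higher, 0 to 2 lower and a median of 1.10 to 1.31. The second member higher in MN1-TEL against MN1, and the second lower in del DBD against MN1-TEL, was Hif1a without MN1-TEL replicate 2. No member was lower in del DBD against MN1-TEL without del DBD replicate 1 or 2, when Pfkfb4 lost its call. Where 1 array was left out, the spread was still estimated over all remaining arrays.

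Correlations of deviations from the group means were -0.16 to 0.18 for arrays with the same replicate number and -0.42 to 0.31 for the others. With 3 arrays per group, these values cannot decide whether arrays of the same number share an origin. With the replicate block, 1 member was higher and 30 lower in MN1-TEL against MN1, 5 higher and 3 lower in del DBD against MN1, where Ddit4 was lost, and 28 higher and 1 lower in del DBD against MN1-TEL. Over members and alternatives together, calls were the same in 729 results, gained in 4 and lost in 8 in MN1-TEL against MN1, and the same in 733, gained in 3 and lost in 5 in del DBD against MN1-TEL. Between del DBD and MN1 they were the same in 701, gained in 19, lost in 19 and of the other sign in 2. Genes near the detection limit (Eno2, Slc16a3, Higd1a, Ero1l) have bounds rather than folds.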
